A study of Macaca fascicularis and Macaca mulatta with 24 samples.

Results

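After an experimental stroke in cynomolgus macaques, potassium channel genes were followed in the cortex of the brain. The genes were all those whose symbol on the array starts with KCN followed by a letter, and each was read by its brightest probe. There were 91 such genes among the 18578 genes of the array, read by 110 of its 20217 probes. A filter on dim probes (well above background in the sample channel on all 3 arrays of at least 1 group) kept 84 of the 91 among the 15912 genes tested. Because a gene can pass that filter through the group in which it is bright, counts over the 84 genes describe the detected genes and not the family. The genes were found by name, and the probe read for each was the one brightest over all arrays, whatever its differences between groups.

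Every animal underwent occlusion of the right middle cerebral artery, and an intravenous dose of either placebo or TatNR2B9c (2.6 mg/kg) followed 5 min later. TatNR2B9c is a cell-penetrating peptide that carries the last residues of NR2B, an NMDA receptor subunit. Cortex was taken 1 h or 6 h after the occlusion from the ischemic right side and from the non-ischemic left side, which gave 8 groups of 3 samples on 24 arrays. The groups were placebo left, placebo right, TatNR2B9c left and TatNR2B9c right cortex at 1 h, and the same at 6 h. No unoperated animal and no age, sex or strain was given in the labels, so left cortex of an operated animal was the only non-ischemic tissue. Left and right samples of the same number, treatment and time were read as 1 animal, which makes 12 animals, although the labels do not state this pairing in words. Each sample RNA was labelled with Cy5 and hybridised with a common rhesus reference RNA labelled with Cy3, and each value below is a log2 ratio of sample to reference, or a difference between such ratios. The probes were designed on the rhesus genome whereas the animals were cynomolgus macaques, so a ratio compares samples for 1 gene and gives no order of level between genes.

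Potassium channels let potassium ions leave cells, set the resting potential of neurons and end each action potential. Voltage-gated channels of the Kv families are built from pore-forming alpha subunits with auxiliary beta, KChIP or KCNE subunits. Inward rectifiers and 2-pore channels hold the resting potential, calcium-activated channels follow spikes and calcium entry, and ATP-sensitive channels open when cellular energy falls. In cortex, most of these genes are known from neurons, while KCNJ10 (Kir4.1) is the main potassium channel of astrocytes and clears potassium from the space around neurons.

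The probes that decide what can be read from these genes differ between genes with 1 probe and genes with several. All 110 probes are 60 bases long, and 106 of them have coordinates on the rhesus build rheMac2. No annotation of that build was used here, so exon, intron and UTR positions are not given. KCNA1 (Kv1.1), one of the genes with the largest differences between times, has a single probe, at chr11:5028584-5028643 on the plus strand, shown whole. KCNK4 (TRAAK, a mechanically gated 2-pore channel) has 2 probes on the minus strand that share no stretch of sequence and gave different values. The first 30 bases are shown of the brighter, at chr14:10122732-10122791, and of the dimmer, at chr14:10127217-10127276. The 2 probes of KCNJ4 (Kir2.3) share 50 bases, of which the first 30 are shown, and have no coordinates in the files.
KCNA1 probe: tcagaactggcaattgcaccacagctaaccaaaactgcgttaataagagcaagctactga
KCNK4 brighter probe: tgcccggtccccagacccaagcccgaaccc
KCNK4 dimmer probe: gaccccccacggctttctgtgtcgctgccc
KCNJ4 shared bases: ctgttgctcatgactttcttttgtaaatat

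The arrays came in 3 blocks that follow the groups. Placebo 1 h arrays, placebo 6 h arrays and TatNR2B9c arrays were scanned on different days with different versions of the scanner software, on different slides. Differences between treatments, and between times in placebo animals, therefore cannot be told apart from these blocks. Differences between right and left cortex, and between 6 h and 1 h in TatNR2B9c animals, were read with 1 software version, but not all within a slide or day. In placebo 6 h no animal had both sides on 1 slide, and left arrays 1 and 3 were scanned on another day than the other 4 arrays, so side is partly confounded with slide and scan day there. In TatNR2B9c animals all 1 h arrays and the 6 h arrays of animal 3 were scanned on 1 day, and the 6 h arrays of animals 1 and 2 on another day and slide, so time is partly confounded with them. The spread of the log2 ratios (SD within an array) was taken over the brightest probe of each gene kept by the filter. It was 0.36 to 1.09 in placebo 1 h and 1.5 to 1.67 in placebo 6 h. In TatNR2B9c arrays it was 0.81 to 1.11 at 1 h and 0.98 to 1.39 at 6 h. On 3 placebo 1 h arrays (left 1, left 3 and right 3) the reference channel was weak, with 18%, 14% and 22.2% of probes well above background in Cy3 against 50.7 to 99.3% on the other arrays. The labelled tissue carried its defining markers, with 13 of 14 neuron markers and 8 of 9 astrocyte markers on the array well above background in Cy5 on all 24 arrays.

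Most of the detected genes lay above the reference. The mean log2 ratio over the 24 arrays was above 0 for 62 of the 84 genes and below 0 for 22. These means pool groups that differ, with KCNJ4 between -1.13 and 4.81 on single arrays, and they order enrichment over the reference and not level. The highest means were 2.72 for KCNJ4, 2.60 for KCNJ6 (GIRK2, a G protein-gated inward rectifier), 2.56 for KCNIP3 (KChIP3, which binds Kv4 channels), 2.52 for KCNH3 (an ELK channel) and 2.51 for KCNV1 (a silent subunit that modifies Kv2 channels). The lowest were -3.74 for KCNJ13 (Kir7.1, known from choroid plexus), -2.29 for KCNJ1 (ROMK, a renal channel), -2.28 for KCNK5 (TASK-2) and -2.26 for KCNJ8 (Kir6.1, the ATP-sensitive channel of vascular cells). The reference RNA is a pool, so a ratio below 0 says only that the cortex held less than that pool.

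Within a role the genes differed. Among Kv1 channels and their beta subunits, KCNAB1 averaged 2.19 and KCNA1 1.87, while KCNA2 averaged 0.46 and KCNAB2 0.49. Among Kv3 channels, which let neurons fire fast, KCNC2 averaged 2.27 whereas KCNC1 averaged 0.09. Among calcium-activated channels, KCNN1 (SK1) averaged 2.36 and KCNMB4, the neuronal beta subunit of BK channels, 2.21, with KCNMA1, the BK pore, at 0.69 and KCNN2 (SK2) at -0.48. Among 2-pore channels, KCNK1 (TWIK-1) averaged 1.85 and KCNK2 (TREK-1) 0.33, and KCNK9 (TASK-3) averaged -0.07. KCNJ10 averaged 1.48 and was above 0 on all 24 arrays.

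**Figure D1:**
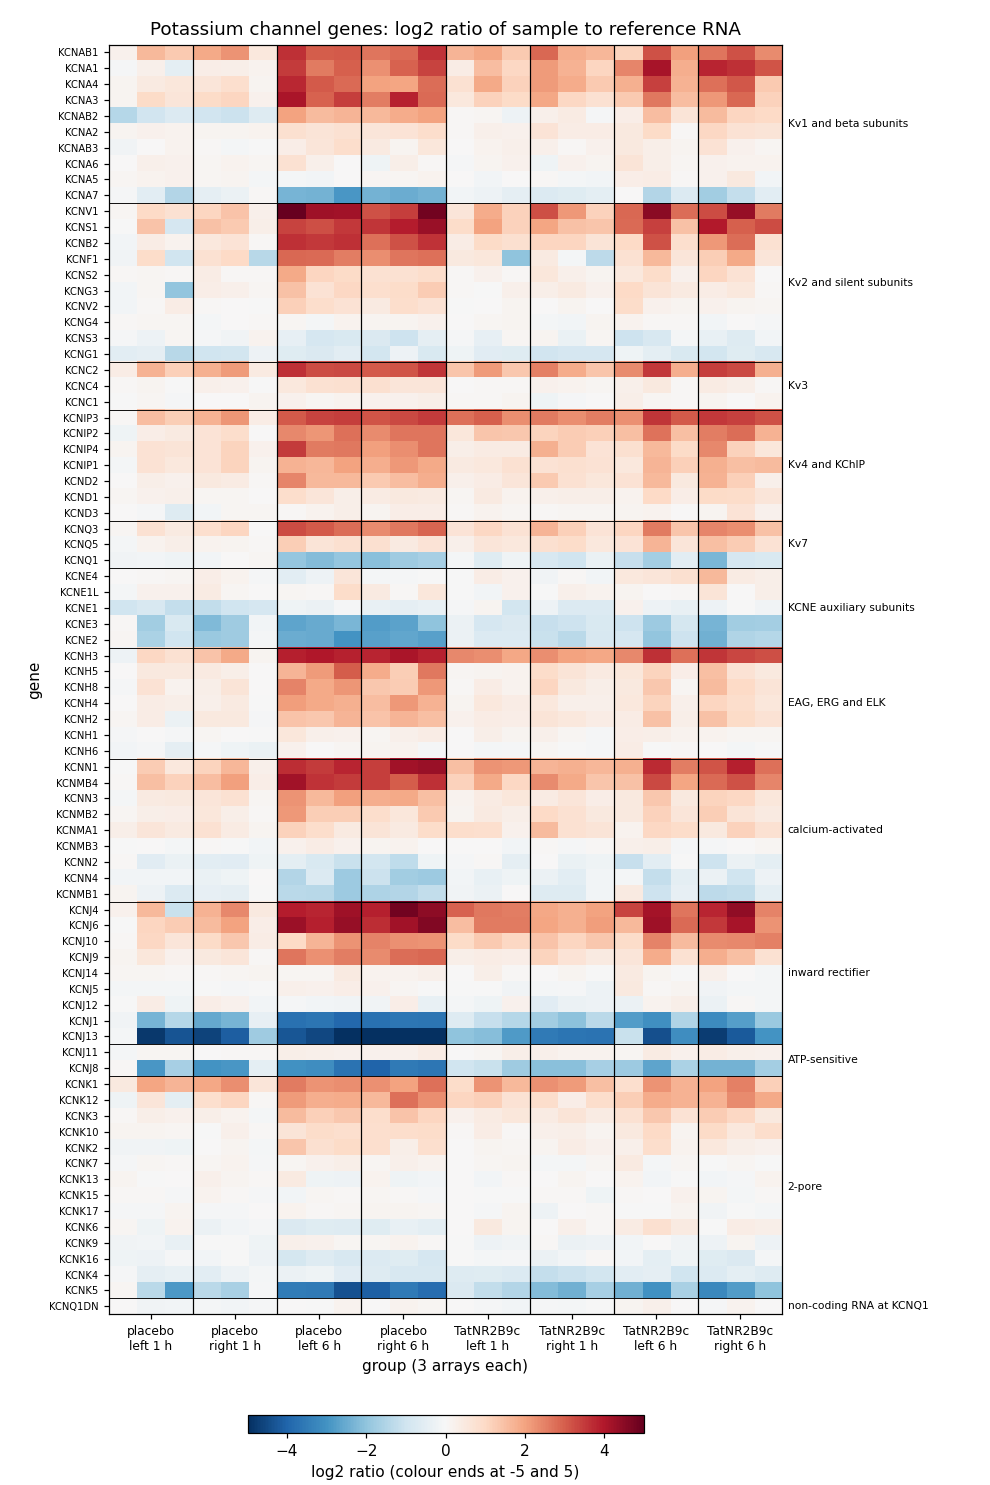
Log2 ratio of sample to reference RNA for detected genes (rows, by role) on each of the 24 arrays (columns, 3 per group), with red above and blue below the reference. Red rows such as KCNJ4 are palest in the placebo 1 h columns and deepest in the placebo 6 h columns, and the blue rows KCNJ13 and KCNK5 are also deepest at placebo 6 h.

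The 7 genes that did not pass the filter were KCNA10, KCNH7, KCNJ2, KCNJ3, KCNJ15, KCNJ16 and KCNK18. KCNH7 was well above background in Cy5 on 8 of 24 arrays and KCNJ2 on 2, and the other 5 on 1 array each. KCNJ2 (Kir2.1), KCNJ3 (GIRK1) and KCNJ16 (Kir5.1) are known in cortex, so their partners KCNJ4, KCNJ6, KCNJ9 and KCNJ10 were measured here without them. Of the 84 genes, 29 were well above background on all 24 arrays and none was saturated. The sodium-activated channels KCNT1 and KCNT2 were not among the genes found.

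The first comparison asked whether potassium channel genes differed between ischemic right and non-ischemic left cortex of the same animals. None of the 84 genes passed in any of the 4 groups of animals (limma, Benjamini-Hochberg adjusted p under 0.05), against 0% of all genes tested in each of the 4 comparisons. At an unadjusted p under 0.05, 3 of the 84 genes passed in placebo 1 h (1.33% of all genes), 2 in placebo 6 h (3.85%), 2 in TatNR2B9c 1 h (4.51%) and 4 in TatNR2B9c 6 h (3.25%). The median right-left difference of the 84 genes was 0.08, -0.03, 0.00 and 0.07 in these 4 groups, beside 0.01, -0.05, -0.03 and 0.07 over all genes. The mean over the 12 animals gave no gene past the threshold either, with 4 of 84 at an unadjusted p under 0.05 (3.79% of all genes).

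KCNJ4 had the largest right-left difference of placebo animals at 1 h. In left cortex its ratios were 0.21, 1.64 and -1.13, and in right cortex of the same animals 1.75, 2.40 and 0.49. Right was higher in all 3 animals, by 1.54, 0.77 and 1.63, although the groups overlapped. The mean difference was 1.31 (SE 0.59, 95% interval 0.07 to 2.55, limma adjusted p = 1). In TatNR2B9c animals at 1 h, its left ratios were 2.95, 2.65 and 2.55 and its right ratios 1.93, 1.77 and 2.03. Here right was lower in all 3 animals without overlap of the groups, by 1.02, 0.88 and 0.52, and the mean difference was -0.81 (SE 0.59, limma adjusted p = 0.927). The difference between these 2 right-left differences was -2.12 (SE 0.83, 95% interval -3.87 to -0.37, limma adjusted p = 1). In TatNR2B9c animals at 1 h the KCNJ4 right-left difference was -0.06 in the sample channel alone and 0.71 in the reference channel alone. Under other scalings of the arrays it was between -1.24 and -0.43. The second KCNJ4 probe gave right-left differences of 0.63 in placebo and -0.75 in TatNR2B9c at 1 h, with the same signs as the first. It shares 50 bases with the first and correlated with it at 0.94 over the 24 arrays, so it is no separate check. Of the 3 weak-reference arrays, 2 are those of placebo animal 3 and 1 is the left array of animal 1. Animal 2, with neither, had the smallest of the 3 placebo differences. At 6 h the KCNJ4 difference was 0.39 in placebo and 0.17 in TatNR2B9c (SE 0.59 each).

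The astrocyte channel KCNJ10 had the smallest p-value of the mean over all animals. Its right-left difference was 0.32 in placebo 1 h, 0.70 in placebo 6 h, 0.19 in TatNR2B9c 1 h and 0.76 in TatNR2B9c 6 h (SE 0.34 each). In placebo 6 h the 3 animals were at 1.49, 0.61 and 0.00, of which the second had both sides scanned on 1 day. The mean was 0.50 (SE 0.17, 95% interval 0.13 to 0.86), with right higher in 9 of 12 animals, and it did not pass over all genes (limma adjusted p = 0.887). In TatNR2B9c 6 h its right ratios were 2.36, 2.40 and 2.52 and its left ratios 0.93, 2.48 and 1.58. The right ratios lay close together, and the lone left ratio of 2.48 overlapped them. The 9 astrocyte markers had a median right-left difference of 0.12, 0.43, -0.07 and 0.37 in the same order of groups, with 6, 8, 3 and 9 of 9 above 0, and their part in the KCNJ10 difference was not tested. In bulk tissue, fewer cells of a type and less RNA per cell cannot be told apart.

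KCNS1, a silent subunit that joins Kv2 channels, was higher in right cortex in 9 of 12 animals. Its right-left difference was 0.84, 0.56, 0.24 and 0.83 in the same order of groups (SE 0.51 each). The mean was 0.62 (SE 0.25, limma adjusted p = 0.887).

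KCNJ13 had the largest right-left difference in both TatNR2B9c groups, and it also varied most between animals. Its difference was -1.30 in TatNR2B9c 1 h and -1.10 in TatNR2B9c 6 h (SE 0.99 each, limma adjusted p = 0.927 and 0.938). Animals ranged from -4.54 to 2.54, both in placebo 1 h, and right was higher in 5 of 12. These extremes came from placebo 1 h animals 1 and 3, which had weak-reference arrays, while animal 2, with none, was at 0.68. The largest difference at 6 h, -3.63, came from 1 TatNR2B9c animal, whose left ratio was -1.11 and right ratio -4.75, while the other two animals differed by 0.20 and 0.14. KCNJ13 is itself a choroid plexus gene. The 6 tested markers of meninges and choroid plexus had a median right-left difference of -0.17, -0.02, -0.44 and -0.18 in the 4 groups. In these groups 1, 3, 0 and 3 of the 6 markers were above 0, and their part in the KCNJ13 values was not tested.

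The other largest right-left differences were of either sign and none passed. In placebo 1 h they were KCNG3 (a silent subunit) at 0.89 and KCNS1. In placebo 6 h they were KCNA4 (Kv1.4, an A-type channel) at -0.95, with animals at -1.73, -1.09 and -0.02, and KCNJ13 at -0.93. In TatNR2B9c 1 h they were KCNV1 at 0.99, with animals at 2.62, 0.31 and 0.03, and KCNK5 at -0.92. KCNK5 was well above background on 0 of 3 left and 1 of 3 right arrays there, so no fold above 1 can be given. A single animal made most of the KCNV1 and KCNG3 differences, the latter with animals at 0.45, 0.14 and 2.08. The KCNG3 value of 2.08 came from placebo 1 h animal 3, whose left and right arrays had a weak reference channel.

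**Figure D2:**
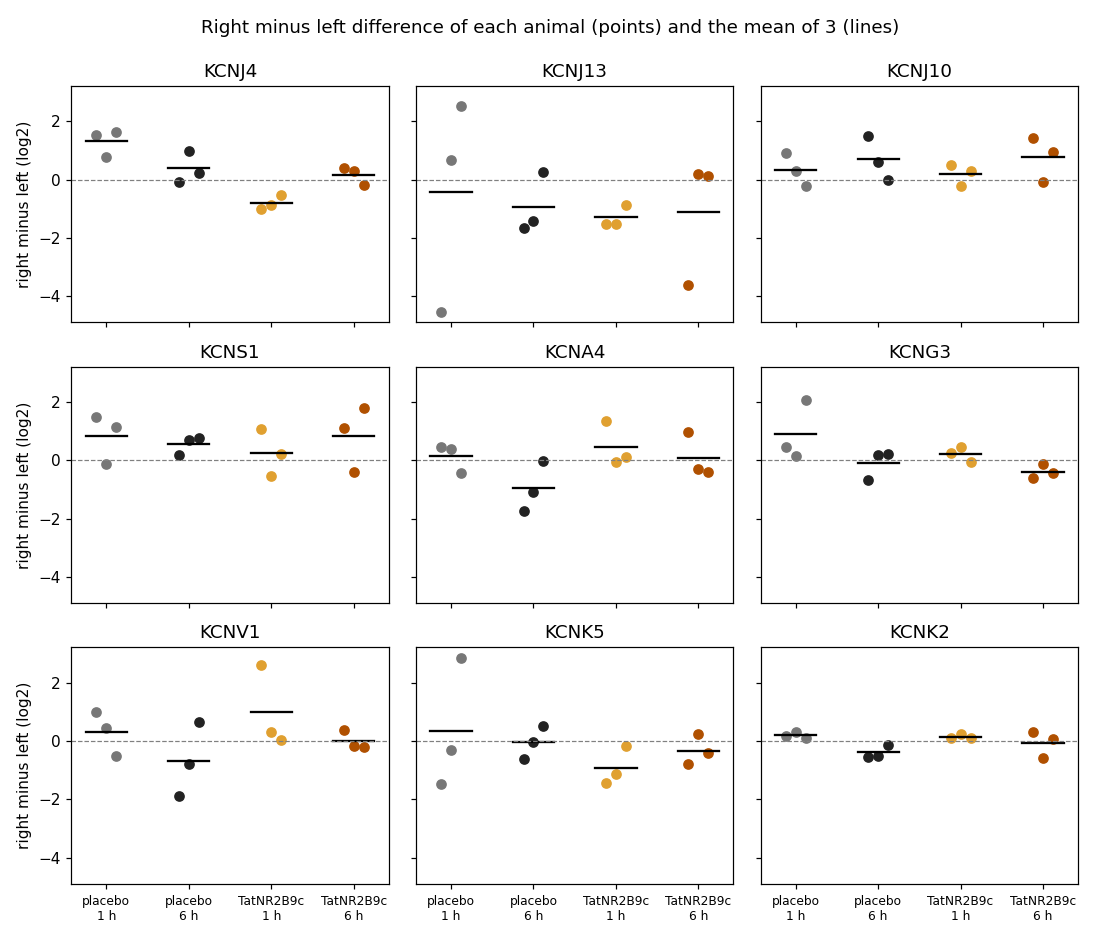
Right minus left difference of the log2 ratio for 9 genes (panels), by group of animals on the horizontal axis, with a point for each animal and a line at the mean of 3. KCNJ4 lies above 0 in all 3 placebo 1 h animals and below 0 in all 3 TatNR2B9c 1 h animals, and KCNJ13 has the widest scatter, from -4.54 to 2.54.

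Direction shared by all 3 animals of a group was about as frequent among potassium channel genes as among all genes. Right was higher in all 3 animals for 13 genes and lower in all 3 for 2 in placebo 1 h, together 17.9% of the 84 beside 15.4% of all genes. In placebo 6 h these were 8 and 11 genes (22.6% beside 25.4%), in TatNR2B9c 1 h 15 and 18 (39.3% beside 39.6%), and in TatNR2B9c 6 h 6 and 12 (21.4% beside 15.6%). In the mean over the 4 groups of animals, all 7 genes of the Kv4 and KChIP role were above 0 by their brightest probes, between 0.02 and 0.26. The second probe of KCNIP2 gave -0.13. Of the 5 KCNE genes, 1 was above 0. No call went with these signs.

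The second comparison asked whether TatNR2B9c changed the right-left difference. None of the 84 genes passed at 1 h or at 6 h (limma, adjusted p under 0.05), against 0% of all genes at both times. The median interaction of the 84 genes was -0.04 at 1 h and 0.18 at 6 h, and that of all genes at 6 h was 0.13. The KCNJ4 value above was the largest at 1 h.

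The third comparison followed time in TatNR2B9c animals, where both times were read with the same software but, outside animal 3, on different scan days and slides. No gene passed in right or left cortex (limma, adjusted p under 0.05), against 0% of all genes on both sides. The 84 genes nonetheless lay higher at 6 h than at 1 h as a group. Their median difference was 0.23 in right cortex with 64 of 84 above 0, and 0.28 in left cortex with 68 above 0, beside medians of 0.04 and -0.01 over all genes. Differences of at least 2-fold were found for 13 of the 84 genes in right cortex (4.03% of all genes) and 7 in left cortex (3.46%). At an unadjusted p under 0.05, 23 genes passed in right cortex (19.4% of all genes) and 20 in left (16.1%). In right cortex 24 genes were higher and 2 lower at 6 h without overlap of the groups (27.9% of all genes in either direction), and in left cortex 22 and 5 (17.5%).

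KCNA1, which opens at low voltage in axons and keeps neurons from firing repeatedly, had the largest difference in right cortex. Its right ratios were 2.13, 1.72 and 1.08 at 1 h and 3.79, 3.65 and 3.14 at 6 h. The groups did not overlap, and the difference was 1.88 (SE 0.46, 95% interval 0.93 to 2.84, limma adjusted p = 0.0708). Its left ratios were 0.38, 1.53 and 1.02 at 1 h and 2.45, 4.13 and 1.81 at 6 h, which were also apart, with a difference of 1.82 (SE 0.46, limma adjusted p = 0.167). KCNS1 differed by 1.80 in right cortex (SE 0.51, limma adjusted p = 0.0951) and 1.21 in left. In left cortex the 3 largest differences were KCNV1 at 2.19 (SE 0.59, limma adjusted p = 0.175), KCNA1, and KCNJ1 at -1.38 (SE 0.54, limma adjusted p = 0.241). KCNJ1 was well above background on only 1 of 3 left arrays at each time.

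By role, most groups had their members above 0. By their brightest probes all 7 Kv4 and KChIP genes were above 0 in both hemispheres, with medians of 0.54 in right and 0.52 in left cortex. KCNIP2 was at 1.17 and 0.81, whereas its second probe gave 0.42 and -0.16. KCND3 was not well above background on any TatNR2B9c 1 h array, so its sign gives no direction. Among Kv3 genes, KCNC2 was at 0.94 and 0.96. Of the 10 Kv1 and beta subunit genes, 9 were above 0 on each side (medians 0.49 and 0.39). Of the 7 EAG, ERG and ELK genes, 6 in right and 7 in left cortex were above 0, with KCNH3 at 1.29 and 0.70. Among Kv7 genes, KCNQ3 was at 0.86 on both sides, and KCNQ1, known from heart and epithelia, was below 0. The 14 2-pore genes had medians of 0.07 on both sides, with KCNK12 at 1.31 and 0.63 and KCNK5 at -0.60 and -1.20. At 1 h KCNK5 was well above background on 1 of 3 right and 0 of 3 left arrays. For left cortex no fold above 1 can be given for it. The 9 calcium-activated genes had medians of 0.00 and 0.20, with KCNN1 at 1.55 and 0.69, KCNMB4 at 0.94 and 0.89 and KCNN2 at -0.44 and -0.42. The vascular ATP-sensitive gene KCNJ8 was at -0.20 and -0.73. None of these values passed.

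Genes above and below the reference differed in sign. They were split by their mean ratio on the 12 placebo arrays, which this comparison does not use. Of the 62 genes above the reference there, 56 in right cortex (90.3%) and 61 in left (98.4%) were higher at 6 h, with medians of 0.42 and 0.45. Of all genes above it, 72.4% and 71% were higher, with medians of 0.17 and 0.14. The 22 genes below the reference had medians of -0.27 and -0.28 beside -0.13 and -0.24 over all genes below it. The spread of log2 ratios within an array was 1.08 to 1.39 on the 4 arrays of TatNR2B9c 6 h animals 1 and 2, 0.98 and 0.99 on those of animal 3, and 0.81 to 1.11 at 1 h. With all arrays set to equal spread, the median difference of the 84 genes was 0.14 in right and 0.08 in left cortex, beside 0.04 and -0.01 over all genes. From the sample channel alone it was 0.04 and 0.12 (all genes 0.01 and -0.08), and from the processed intensities of the scanner software 0.15 and 0.00 (-0.06 and -0.09). Several marker lists moved the same way. Neuron markers had 14 of 14 above 0 in right cortex (median 1.07) and 13 of 14 in left (0.65), oligodendrocyte markers 9 and 8 of 10 (0.77 and 0.69), astrocyte markers 8 and 6 of 9 (0.65 and 0.11) and blood markers 3 and 3 of 4 (0.31 and 0.82). Markers of meninges and choroid plexus had 1 of 6 above 0 on each side (-0.50 and -0.85). Microglia and macrophage markers had 7 and 4 of 9 above 0 (0.17 and -0.08), and endothelial and mural markers 8 and 5 of 12 (0.17 and -0.13). The mean neuron marker ratio per array was 2.20 to 2.40 in right cortex at 1 h and 2.69 to 3.82 at 6 h, and 2.07 to 2.67 and 2.62 to 3.75 in left. The part of these lists in the channel values was not tested.

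Animal 3 of each time was hybridised on a shared slide, and the other animals on slides of a single time. On the shared slide the median difference of the 84 genes was 0.15 in right and 0.08 in left cortex, with 59 and 51 above 0. On the other slides it was 0.28 and 0.34, with 64 and 66 above 0. KCNA1 differed by 2.06 in right and 0.79 in left cortex on the shared slide, and by 1.79 and 2.34 on the others. KCNJ4 differed by 0.45 and 0.12 on the shared slide and by 2.27 and 0.98 on the others. Without right 6 h replicate 3, which is on that slide, 4 genes passed in right cortex, among them KCNA1 and KCNIP2 higher. The KCNK16 probe, which also passed, was not well above background on any array of either group, so it gives no direction. Without left 6 h replicate 3, 5 genes passed in left cortex, namely KCNA1, KCNA2, KCNK10 and KCNV1 higher and KCNS3 lower. On the shared slide the left differences of KCNA2, KCNK10, KCNV1 and KCNS3 were -0.17, 0.06, 1.66 and -0.20. Leaving out any other replicate of these groups gave 0 genes. Without replicate 3, every 6 h array of that side was on another slide and scan day than the 1 h arrays. Time was then fully confounded with slide and scan day. The share of all genes called in these fits is not given here.

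The fourth comparison followed time in placebo animals, where time cannot be told apart from the array block. At 6 h, 39 of the 84 genes rose and 11 fell in right cortex (limma, adjusted p under 0.05), against 40.9% of all genes called in either direction. In left cortex 50 rose and 12 fell, against 54.1% of all genes. The median difference was 0.53 in right and 0.66 in left cortex beside 0.04 and 0.11 over all genes. Groups were apart for 55 higher and 13 lower genes in right cortex (59.7% of all genes in either direction) and for 54 and 13 in left (63.9%). These calls depend on the scaling of the arrays. With the arrays set to equal spread, 3 genes rose and 1 fell in right cortex (2.88% of all genes called) and 4 rose and 0 fell in left (1.42%). With the authors' processed intensities 16 rose and 4 fell in right (14.8%) and 30 and 5 in left (29.6%). With median centring in place of loess 35 rose and 16 fell in right and 40 and 18 in left, below the shares of all genes of 71.7% and 76.3%. From the sample channel alone 12 rose and 6 fell in right (24.9%) and 6 and 1 in left (14.6%). Without the 3 weak-reference arrays 36 rose and 7 fell in right cortex (28.1%), and 35 rose and 5 fell in left (25.5%). Under median centring and with the processed intensities the median of all genes moved to -0.80 and -0.36 in right cortex and -0.89 and -0.35 in left, which shifts every difference of those settings.

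Here too the direction differed between genes above and below the reference, split by the mean on the 12 TatNR2B9c arrays, which this comparison does not use. In right cortex 37 of the 63 genes above the reference rose and 0 fell, where 39.2% of all genes above it rose, and of the 21 below it 11 fell and 2 rose, where 39.1% of all genes below it fell. In left cortex 46 rose and 1 fell above the reference (55.2% of all genes rose), and 11 fell and 4 rose below it (46.1% of all genes fell). Marker lists moved as well. The 14 tested neuron markers rose on both sides (medians 2.38 in right and 2.72 in left cortex), 5 and 8 of 10 oligodendrocyte markers rose (1.39 and 1.92) and 3 and 4 of 9 astrocyte markers rose (0.80 on both). Of the 6 markers of meninges and choroid plexus 4 fell on both sides (-1.31 and -1.65), and of the 4 blood markers 2 fell on both (-1.70 and -1.60). Of the 9 microglia and macrophage markers 4 fell in right cortex (-0.51) and 1 rose in left (-0.25), and of the 12 endothelial and mural markers 1 rose and 1 fell on each side (-0.27 and -0.38). The mean neuron marker ratio per array was 0.36 to 2.18 in placebo right cortex at 1 h and 3.56 to 4.01 at 6 h, and 0.12 to 1.71 and 3.60 to 3.71 in left. The mean oligodendrocyte marker ratio per array was 0.31 to 1.65 and 1.74 to 2.85 in right, and 0.05 to 1.28 and 2.28 to 2.51 in left. The part of these lists in the channel values was not tested. Of the 50 called genes in right cortex, 39 had the opposite sign in the reference channel taken alone, and 33 had the same sign in the sample channel alone. Of the 62 in left cortex these were 51 and 38.

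**Figure D3:**
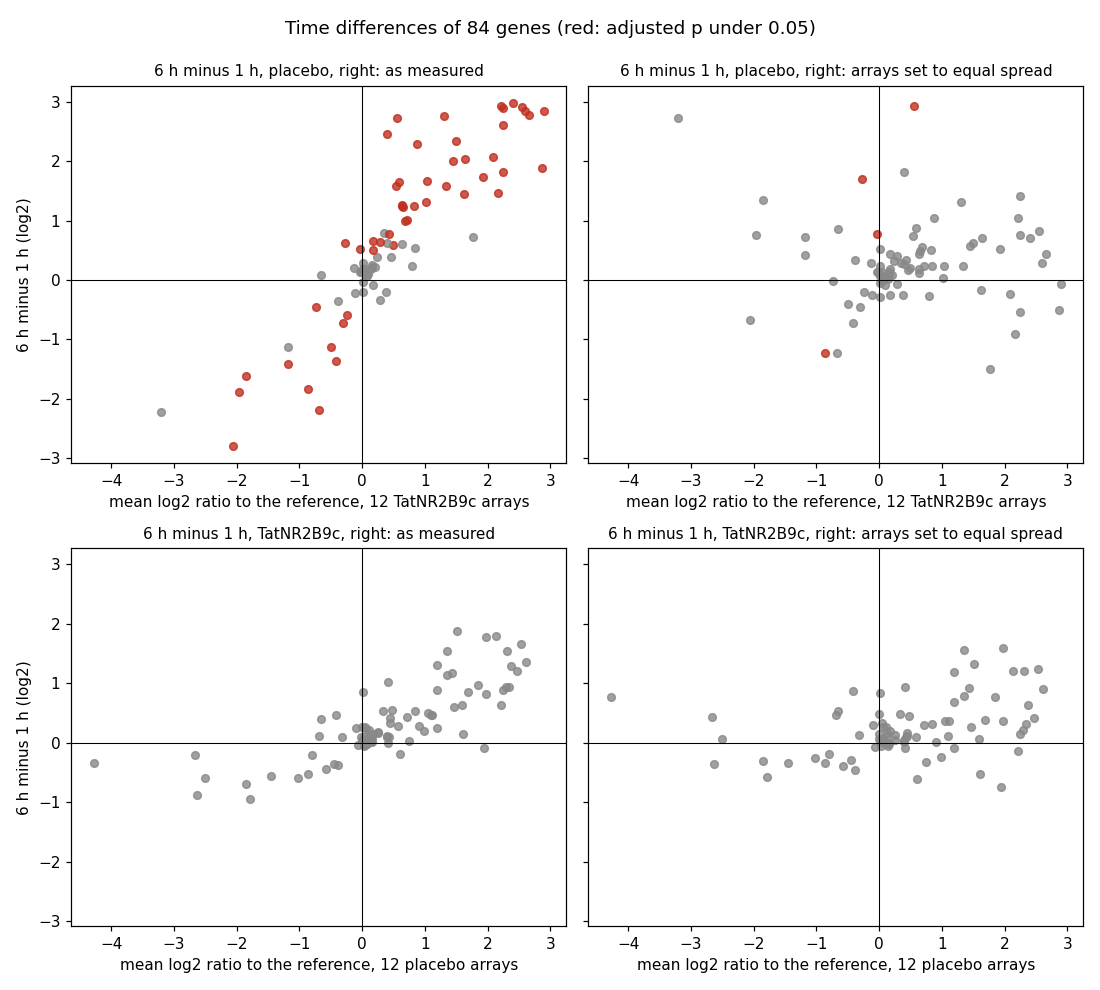
Difference between 6 h and 1 h in right cortex (vertical, log2) for the 84 genes in placebo (top) and TatNR2B9c (bottom) animals, as measured (left) and with the arrays set to equal spread (right), against the mean log2 ratio to the reference over the 12 arrays of the other treatment (horizontal); red points passed. As measured, placebo differences run from low left to high right with 50 genes passing, and with equal spread 4 pass.

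Across 5 scalings of the arrays (median centring, equal spread, processed intensities, series matrix values and the sample channel alone), each difference was read relative to the median of all genes under the same scaling, because these medians ran from -0.89 to 0.07. The series matrix holds the same log10 ratios as the processed intensities to within 0.005, so these are not separate checks. Relative to the all-gene medians, 26 of the 50 calls in right cortex and 35 of the 62 in left kept their side in each. A kept side means the same sign only, whatever the size, and some kept values lay near 0. For the calls named below that did not, the relative value is given with a setting in which the side turned. Within Kv1 channels and beta subunits, KCNAB2, KCNA1, KCNA2 and KCNA3 rose on both sides and kept their side. KCNA1 was at 2.61 in right and 3.1 in left, KCNA3 at 2.33 and 2.93 and KCNA2 at 0.59 and 0.56. In the sample channel alone KCNA2 was at 0.03 and 0.02, and KCNA3 at 0.71 and 0.02. KCNA4 rose by 1.74 in right cortex, with -0.16 in the sample channel alone, and by 2.83 in left, where it kept its side. KCNAB1 rose by 1.47 and 2.19 but turned under median centring (-0.64 and -0.50), with equal spread (-0.91 and -0.01) and in the sample channel alone (-0.62 and -0.58). KCNA7, known from heart and muscle, fell by 2.18 and 1.85 and kept its side, with only -0.06 and -0.10 in the sample channel alone. At 1 h KCNA7 was well above background on only 1 of 3 placebo arrays of each side.

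Among Kv2 channels and silent subunits, KCNB2 (Kv2.2) rose by 2.76 in right and 3.47 in left cortex, KCNV1 by 2.91 and 3.89, KCNS1 by 2.90 and 3.19, KCNF1 by 2.46 and 2.85 and KCNV2 by 0.66 and 0.83, and these kept their side in the 5 scalings. KCNS3 fell by 0.72 and 0.60 and kept its side too. KCNS2 rose in left cortex by 1.23 and did not pass in right at 0.62. KCNG3 rose in left by 1.76, with -0.47 in the sample channel alone, and was at 0.79 in right.

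Among Kv4 channels and their KChIP partners, 5 of 7 genes rose in right and 6 in left cortex. KCND2 (Kv4.2, the dendritic A-type channel) rose by 1.25 and 1.72 and kept its side, with 0.07 and 0.85 in the sample channel alone. KCNIP1 to KCNIP4 rose by 1.31, 2.03, 1.88 and 1.67 in right and by 1.41, 2.27, 2.36 and 2.39 in left cortex, and KCNIP2 kept its side in left cortex. In right cortex KCNIP1 was at -0.07 and KCNIP3 at -0.42 under median centring, and KCNIP2 at -0.07 and KCNIP4 at -0.62 in the sample channel alone. In left cortex KCNIP1 was at -0.63 and KCNIP3 at -0.51 under median centring, and KCNIP4 at -0.15 in the sample channel alone. KCND3 rose in left by 0.40, but it was not well above background on any placebo left 1 h array and the difference is bounded only as at least 1.08-fold. The second KCNIP2 probe gave 0.13 and 0.35 on the 2 sides. Among Kv3 genes, KCNC2 rose by 1.82 and 2.31 but was at -1.43 and -1.14 in the sample channel alone, and KCNC4 rose by 0.51 and 0.64 and kept its side. KCNC1 did not pass on either side.

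Among Kv7 genes, KCNQ3 rose by 2.00 and 2.59, with -0.06 and -0.07 in the sample channel alone. KCNQ5 rose in left by 0.77, with -0.05 in the sample channel alone, and was at 0.53 in right. KCNQ1 fell by 1.83 and 1.84 and was at 0.18 and 0.40 in the sample channel alone. Among EAG, ERG and ELK genes, 5 of 7 rose in right and 7 of 7 in left. KCNH3 rose by 2.77 and 3.39 and KCNH4 by 1.58 and 1.70, both keeping their side, KCNH5 by 1.65 and 1.94, with -0.16 in left in the sample channel alone, and KCNH1 in left by 0.39, bounded as at least 1.12-fold because it was not well above background on any placebo left 1 h array.

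Among inward rectifiers, the G protein-gated KCNJ9 (GIRK3) rose by 2.29 and 2.20 and kept its side, and its other 2 probes gave 1.18 and 1.27 in right cortex. KCNJ6 rose by 2.85 and 3.38 but was at -1.04 and -0.54 in the sample channel alone. KCNJ4 rose by 2.84 and 3.77 and was at -0.08 with equal spread in right cortex. KCNJ10 rose by 1.45 and 1.08, with -0.35 and -1.14 under median centring. KCNJ1 fell by 1.88 and 2.47 and was at 0.74 with equal spread in right cortex. The ATP-sensitive KCNJ8 fell by 1.61 and 1.77 and was at 1.34 and 0.46 with equal spread, and KCNJ11 (Kir6.2) did not pass at 0.22 and 0.23.

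Among 2-pore channels, KCNK12 rose by 1.58 and 1.95 and kept its side. KCNK3 (TASK-1) rose by 1.00 and 1.18 and KCNK2 by 0.64 and 1.23, both below 0 in the sample channel alone (-0.12 and -0.10, -0.14 and -0.30). KCNK10 (TREK-2) rose by 0.78 and 0.68 and kept its side, with 0.03 and 0.16 from the processed intensities. KCNK9 rose in left by 0.41, and KCNK1 did not pass at 0.73 and 0.99. KCNK5 fell by 2.79 and 2.40 and was at 0.37 with equal spread in left cortex. KCNK4 fell in right cortex by 0.46 by its brighter probe, with 0.43 in the sample channel alone, whereas its dimmer probe gave 1.35, and the 2 probes correlated at 0.10 over the 24 arrays. Among calcium-activated channels, KCNN1 rose by 2.98 and 3.08 and KCNN3 (SK3) by 1.24 and 1.71, and both kept their side. KCNMB4 rose by 2.06 and 2.87, with -0.31 and -0.34 in the sample channel alone. KCNMA1 did not pass at 0.24 and 0.38, nor KCNN2 at -0.36 and -0.51. KCNN4, the SK4 channel of blood cells and epithelia, fell by 1.36 and 1.19, with 0.22 and 0.25 in the sample channel alone, and KCNMB1, the smooth muscle BK subunit, fell by 1.12 and 1.24 and kept its side.

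Of the KCNE subunits, KCNE2 fell by 1.42 and 1.83, with 0.41 under equal spread in right cortex, KCNE3 fell in left by 1.67, and KCNE1 rose by 0.63 and 0.83. KCNE1 and KCNK16 (fell by 0.59 and 0.61, with 0.09 and 0.19 in the sample channel alone) were not well above background on any placebo 1 h array of either side, and for them no fold above 1 can be given. KCNH6 (rose by 0.32) and KCNJ5 (rose by 0.38, with -0.03 in the sample channel alone) were not well above background on any placebo left 1 h array either, and their differences in left cortex are bounded as at least 1.00-fold and at least 1.02-fold. Further calls were KCNH2 (rose by 1.22 and 1.42, with -0.06 in left in the sample channel alone), KCNH8 (1.26 and 1.91, with -0.89 and -0.51 in the sample channel alone) and, in left cortex, KCNMB2 (1.30, with -0.62 there), KCNMB3 (0.30, with -0.11 there), KCNAB3 (0.61) and KCNK6 (fell by 0.67, with 0.26 there).

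KCNAB2 was the one gene whose call in right cortex held under each of equal spread, processed intensities, series matrix values, median centring, the sample channel alone and removal of the 3 weak-reference arrays. KCNAB2 encodes the Kv beta-2 subunit, which binds Kv1 channels and helps bring them to axons. Its placebo right ratios were -0.95, -1.08 and -0.63 at 1 h and 1.63, 1.86 and 2.03 at 6 h. The difference was 2.72 (SE 0.26, limma adjusted p = 2.75e-06), and in the sample channel alone it was 1.52 (limma adjusted p = 0.000302). Its placebo left ratios were -1.42, -0.96 and -0.70 at 1 h and 2.02, 1.58 and 1.70 at 6 h, which also did not overlap. The difference was 2.80 (SE 0.26, limma adjusted p = 2.01e-06), and in the sample channel alone it was 0.58 (limma adjusted p = 0.13). The reference channel alone moved by -1.53 in right and -2.26 in left cortex. In TatNR2B9c animals, KCNAB2 ratios of right cortex were 0.27, 0.41 and -0.05 at 1 h, below those of 1.60, 1.08 and 1.00 at 6 h. These groups were apart, with a difference of 1.02 (SE 0.26, limma adjusted p = 0.0852) that was 1.05 on the shared slide and 1.00 on the other slides. In left cortex the ratios were 0.06, 0.10 and -0.26 at 1 h and 0.32, 1.55 and 0.64 at 6 h, also apart, and the differences were 0.90 on the shared slide and 0.85 on the others.

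**Figure D4:**
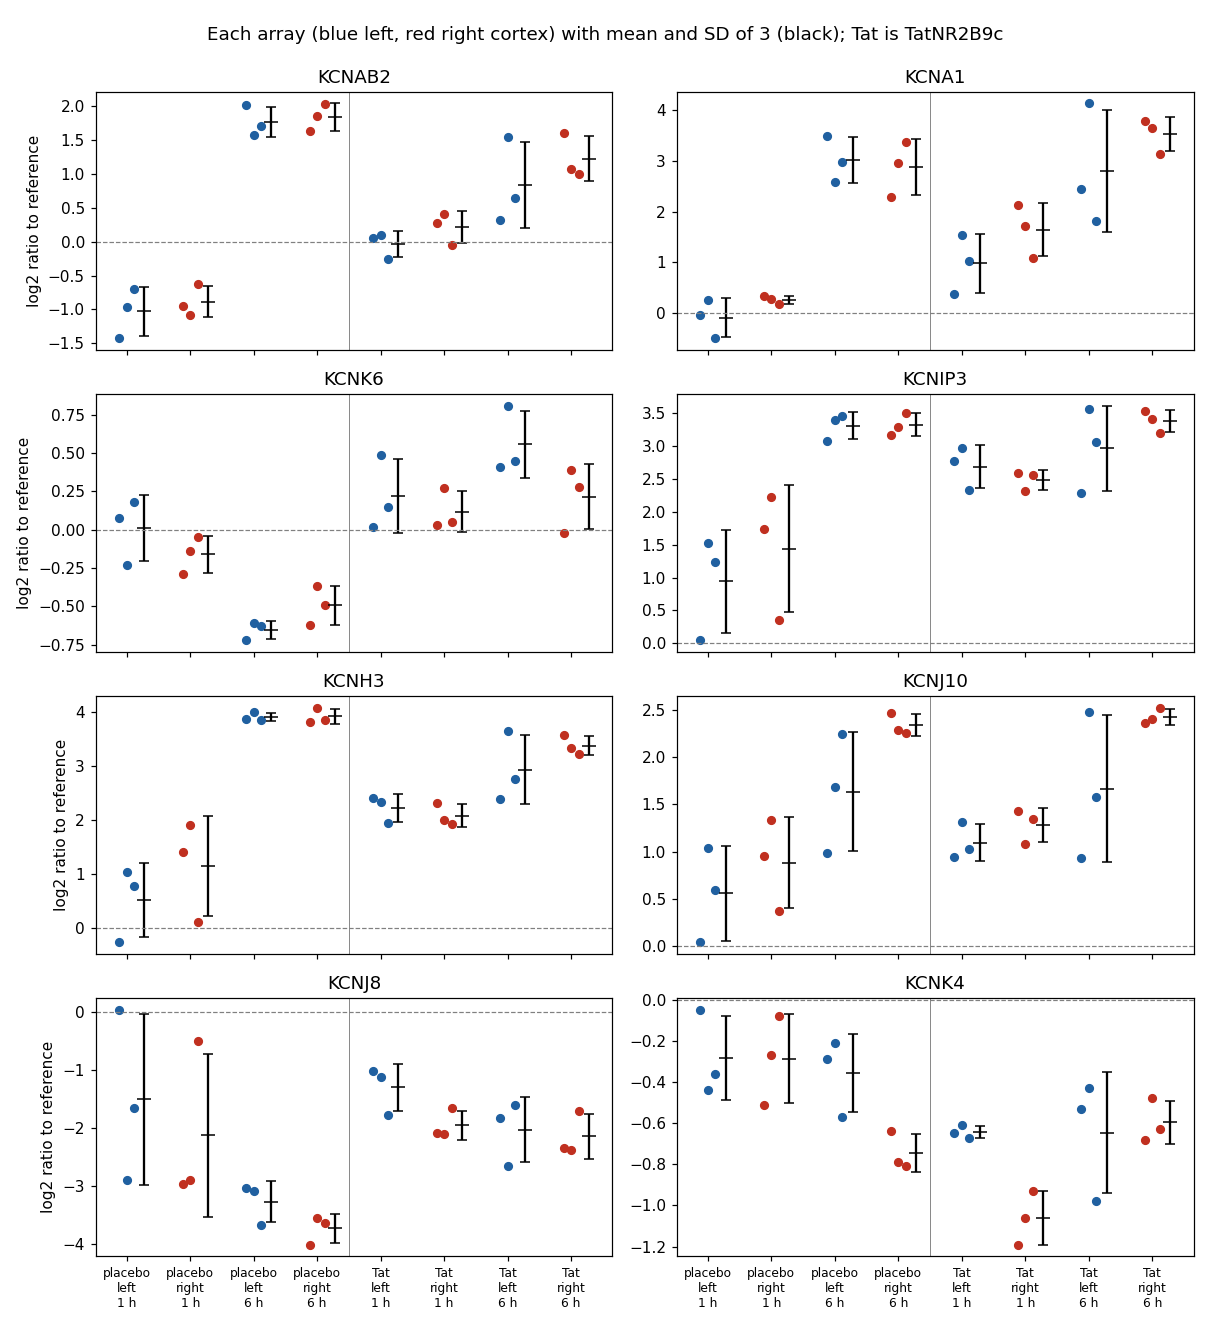
Log2 ratio to the reference for 8 genes (panels) on each array (points, blue left and red right cortex) with the mean and SD of 3 (black), by group on the horizontal axis, where Tat stands for TatNR2B9c. KCNAB2 is below 0 on all placebo 1 h arrays and above 1.5 on all placebo 6 h arrays, with TatNR2B9c arrays between -0.26 and 1.60.

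The last comparison set TatNR2B9c against placebo in each hemisphere and time, where treatment cannot be told apart from the array block. These comparisons use the same placebo arrays as the right-left and time comparisons. In right cortex at 1 h, 1 of the 84 genes was higher and 1 lower (limma, adjusted p under 0.05), against 1.59% of all genes called. KCNAB2 was higher by 1.09 (SE 0.26, limma adjusted p = 0.0413), with the 2 groups apart. KCNK4 was lower by 0.77 (SE 0.15, limma adjusted p = 0.0161), with placebo ratios of -0.51, -0.27 and -0.08 and TatNR2B9c ratios of -1.19, -1.06 and -0.93, which did not overlap. Its dimmer probe gave 0.02. Without placebo right 1 h replicate 3, TatNR2B9c right 1 h replicate 1 or TatNR2B9c right 1 h replicate 2, 0 genes passed, and without placebo right 1 h replicate 1 or 2 only KCNK4 did. Without the 3 weak-reference arrays, 0 genes passed.

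In left cortex at 1 h, 2 genes were higher and 0 lower, against 0.892% of all genes called. KCNIP3 was higher by 1.74 (SE 0.40, limma adjusted p = 0.0471), with placebo ratios of 0.05, 1.53 and 1.24 and TatNR2B9c ratios of 2.76, 2.97 and 2.32. KCNH3 was higher by 1.71 (SE 0.38, limma adjusted p = 0.0366), with placebo ratios of -0.26, 1.05 and 0.78 and TatNR2B9c ratios of 2.42, 2.34 and 1.94. The groups were apart for both genes. Under median centring they were at -2.31 and -1.80 where the median of all genes was -0.97, which leaves -1.34 and -0.83 relative to it. The lowest placebo ratio of each came from left 1 h replicate 1, whose reference channel was weak and without which 0 genes passed. Removing placebo left 1 h replicate 3, TatNR2B9c left 1 h replicate 1 or TatNR2B9c left 1 h replicate 2 also left 0, and removing TatNR2B9c left 1 h replicate 3 gave 4.

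In right cortex at 6 h, 2 genes were higher and 2 lower, against 4.24% of all genes called. KCNK6 (TWIK-2, a 2-pore channel of vascular and immune cells) was higher by 0.71 (SE 0.15, limma adjusted p = 0.0133), with placebo ratios of -0.62, -0.37 and -0.49 and TatNR2B9c ratios of -0.02, 0.39 and 0.28. KCNN4 was higher by 1.03 (SE 0.29, limma adjusted p = 0.0483), with -0.11 relative to all genes in the sample channel alone. KCNJ9 was lower by 1.32 (SE 0.30, limma adjusted p = 0.018) and KCNH4 by 0.96 (SE 0.21, limma adjusted p = 0.0164). Without TatNR2B9c right 6 h replicate 3 no gene passed. Without TatNR2B9c right 6 h replicate 1 there were 7, without placebo right 6 h replicate 2 there was 1, and without placebo right 6 h replicate 3 there were 2. The 4 tested blood markers had a median difference of 1.88, with all 4 above 0, and the 6 markers of meninges and choroid plexus one of 1.07, with all 6 above 0. Microglia and macrophage markers had 8 of 9 above 0 (median 0.32), and neuron markers 2 of 14 (median -0.56). The mean blood marker ratio per array was -2.98 to -2.66 in placebo and -0.92 to 1.06 in TatNR2B9c right cortex at 6 h, and the part of these lists in the KCNN4 and KCNK6 values was not tested.

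In left cortex at 6 h, 6 of the 84 genes were higher and 19 lower, against 24.3% of all genes called. The median of the 84 genes was -0.26 beside -0.07 over all genes. Of the 55 genes above the reference on the 12 arrays of 1 h, which are not in this comparison, 1 was higher and 18 lower, and of the 29 below it 5 were higher and 1 lower. Of all genes, 23.2% of those above were lower and 18.6% of those below were higher. The higher genes were KCNA7 at 1.81, KCNE2 at 1.37, KCNK6 at 1.21, KCNMB1 at 1.18, KCNQ1 at 0.90 and KCNK16 at 0.48. KCNK16 was well above background on 2 of 3 placebo and 1 of 3 TatNR2B9c arrays. KCNA7 was so on 3 of 3 placebo but only 1 of 3 TatNR2B9c arrays, although it was called higher in TatNR2B9c. KCNK6 had the smallest p (SE 0.15, limma adjusted p = 0.000166), with placebo ratios of -0.72, -0.61 and -0.63 and TatNR2B9c ratios of 0.41, 0.81 and 0.45. These ratios did not overlap, and relative to all genes their difference was 0.80 to 1.60 in the 5 scalings. The lower genes were led by KCNB2 at -1.94, KCNIP4 at -1.76, KCNA3 at -1.67, KCNH5 at -1.61, KCNH8 at -1.56, KCNMB4 at -1.52 and KCNJ9 at -1.43. Among the others, KCNQ3 was at -1.35, KCNH4 at -1.32, KCNN3 at -1.20, KCND2 at -0.96, KCNAB2 at -0.93, KCNMB2 at -0.79, KCNH2 at -0.78, KCNS2 at -0.75, KCNK2 at -0.62, KCNV2 at -0.50 and KCNC4 at -0.44. In 16 of the 25 the side of the all-gene median held in the 5 scalings, and the other 9 included KCNE2, KCNQ1, KCNAB2, KCNC4, KCNH4, KCNK2, KCNMB4 and KCNV2. With equal spread and with the processed intensities 0 of the 84 passed (0% and 0.182% of all genes), with median centring 2 were higher and 22 lower (18.9%), and from the sample channel alone 3 were higher and 5 lower (16.4%). Marker lists moved as well. Blood markers (median 2.05) and markers of meninges and choroid plexus (1.15) had 4 of 4 and 6 of 6 above 0, while neuron markers (-0.67) had 1 of 14 and oligodendrocyte markers (-1.17) 0 of 10 above 0. Of these, 2 blood and 3 meningeal or choroid plexus markers passed as higher, and 1 neuron and 3 oligodendrocyte markers as lower. Astrocyte markers had 7 of 9 above 0 (median 0.53), microglia and macrophage markers 5 of 9 (0.08) and endothelial and mural markers 9 of 12 (0.31). The mean blood marker ratio per array was -2.91 to -1.30 in placebo and -0.84 to 2.36 in TatNR2B9c, that of neuron markers 3.60 to 3.71 and 2.62 to 3.75, and that of oligodendrocyte markers 2.28 to 2.51 and 0.56 to 2.10. The part of these lists in the channel values was not tested.

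This last count moved with single arrays. Without TatNR2B9c left 6 h replicate 2 there were 40 calls, without TatNR2B9c left 6 h replicate 1 or 3 there were 9, and without placebo left 6 h replicate 1 there were 11. The share of all genes called is not given for any fit with an array left out. Such changes, here and above, cannot be read as particular to the channel genes. With the 2 groups of each comparison fitted alone, 0 of the 84 genes passed in left cortex at 6 h and in either hemisphere at 1 h, and 1 passed in right cortex at 6 h.

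Genes that act with potassium channels were read beside them, from a list of 27 partners of which 21 were on the array and 19 tested. The list holds proteins that bind or place channels, such as DPP6 and DPP10 (partners of Kv4), LGI1 and CNTNAP2 (of Kv1), AMIGO1 (of Kv2), the sulfonylurea receptors ABCC8 and ABCC9 (of Kir6), the scaffold DLG4 and the HCN channels. In the right-left comparisons, the interactions and the TatNR2B9c time comparisons, 0 of 19 passed. Their median right-left difference was 0.11, -0.05, 0.17 and 0.23 in the 4 groups of animals. In TatNR2B9c animals their median difference between times was 0.39 in right and 0.40 in left cortex, with 16 and 17 of 19 above 0. In placebo animals 10 rose and 1 fell in right cortex (median 1.19, against 40.9% of all genes called) and 12 rose and 0 fell in left (median 1.54, against 54.1%). DPP6 rose by 1.94 and 2.00 and DLG4 (PSD-95) by 1.87 and 2.38, with the same dependence on array block as the channel genes. Between treatments, 0 passed at 1 h on either side, 1 was higher and 1 lower in right cortex at 6 h (4.24% of all genes called), and 1 was higher and 6 lower in left (24.3%), among them AMIGO1 at -1.44 (limma adjusted p = 0.000489) and DPP6 at -0.92 (limma adjusted p = 0.0194).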

How the data were processed

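Cortical RNA of 24 samples was measured on 2-colour Agilent arrays with sample in Cy5 and a common reference in Cy3, per the labels, without a dye swap, so dye bias was not tested. Feature Extraction, Agilent's scanner software, turned the images into values. Its version is 10.7.3.1 in the submitters' processing notes. Per the file headers it was 10.7.3.1 for the TatNR2B9c arrays, 9.5.3.1 for those of placebo 1 h, and 10.5.1.1 for those of placebo 6 h. The deposited intensities are linear mean signals and median local backgrounds, not normalised, and processed intensities, which per the file headers were background-subtracted and dye-normalised by that software. The deposited log10 ratios and the authors' series matrix agree to within 0.005, in the direction sample over reference. The deposited flag scores of 0 or 1 mark spots as not uniform, saturated or well above background, per the file headers.

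Background was corrected with normexp (offset 50) and ratios normalised by loess within arrays, with the 1417 control spots at weight 0. The 0.163% of spots flagged as not uniform were left out, and spots of a probe were averaged. The filter kept 17213 probes. Groups were compared with limma 3.58.1 in R 4.3.3 (two-sided, 1 mean per group over all 24 arrays), with Benjamini-Hochberg adjustment over all 15912 genes tested. There were 15 comparisons, namely right minus left cortex in each of the 4 animal groups and on average, its interaction with treatment at both times, 6 h against 1 h in 4 groups, and TatNR2B9c against placebo in 4. Values were handled in R (data.table, version 1.17.8) and in Python 3.11.15 (pandas 2.3.3 with numpy 2.4.6), and drawn with matplotlib 3.10.9. The fit was tested on simulated data. The number of arrays limits the precision. Replicates are separate animals by the labels' protocol.

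Same-numbered left and right samples were read as the same animal from the numbers in the labels and their 3 animals per group, a pairing that the labels do not state in words. Their deviations from the group means correlated between -0.71 and 0.69, and 6 of 12 pairs were above 0.1. In placebo 1 h, left 1 correlated at -0.71 with right 1 but at 0.76 with right 3. Same-numbered pairs were at -0.20, -0.11 and -0.09 in placebo 6 h, and at 0.24, 0.27 and 0.43 in TatNR2B9c 1 h. The pairing therefore rests on the numbers in the labels. Alternatives were no background correction, median centring, equal spread, processed intensities, the series matrix, the sample channel alone, no filter, the mean over probes, the compared groups alone, animal, slide or scan day as a block, and leaving out arrays. The reference channel alone was read after the data were seen, as a description.

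Genes were named where they passed in a comparison, were among the 3 largest differences between hemispheres or in TatNR2B9c over time, had a known role in cortex by a list, or had probes of opposite sign. Of the 91 genes, 43 are named in the oldest and the newer annotation of the files, 46 only in the oldest and 2 only in the newer. The newest description of the probe used names a potassium channel for 71 genes, is unknown for 19 and names something else for 1. Some of the 84 genes are not reported by name here, although counts, medians and adjusted p-values include them. The members and all lists were chosen with earlier results of these data known.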

Additional observations from a re-analysis of the deposited data

Results flagged for a closer look

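For each of the 10 pairs of animal groups and genes given here, the right-left difference had one sign in all 3 animals of a group and the other sign in all 3 of another group. Each value below is the mean right-left difference (log2) of the second group minus that of the first, and none passed a test. Between placebo 1 h and placebo 6 h these were KCNG4 at 0.18, KCNJ5 at -0.24, KCNK2 at -0.59 and KCNK9 at -0.21, 4.76% of the 84 genes beside 2.29% of all genes, and the differences were not tested. In placebo 1 h, KCNJ5 was not well above background on any array, and KCNG4 only on 1 left array. Their signs at 1 h therefore give no direction, although the share includes them. KCNK2, which responds to stretch, acid and lipids, had right-left differences of 0.18, 0.31 and 0.12 at 1 h and -0.53, -0.51 and -0.12 at 6 h.

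Between placebo and TatNR2B9c at 1 h these were KCNA2 at 0.34, KCNJ4 at -2.12, KCNJ5 at -0.13 and KCNQ1 at -0.54 (4.76% beside 2.64% of all genes), each with a limma interaction adjusted p of 1. KCNJ5 was not well above background on any 1 h array of either treatment, so its signs give no direction. In TatNR2B9c animals at 1 h the KCNJ4 right-left difference was -0.06 in the sample channel alone. Between placebo and TatNR2B9c at 6 h these were KCNG4 at -0.25 and KCNK6 at -0.50 (2.38% beside 1.70%), each with a limma interaction adjusted p of 0.93. KCNK6 had right-left differences of 0.10, 0.24 and 0.14 in placebo and -0.44, -0.42 and -0.16 in TatNR2B9c at 6 h. Between TatNR2B9c 1 h and TatNR2B9c 6 h there was 1 such gene among the 84, not named here (1.19% beside 2.31% of all genes).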

How the results depend on the processing

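The right-left differences, their interactions with treatment and the TatNR2B9c time comparisons gave 0 of 84 genes under each setting tried over the whole set of arrays, and leaving out 1 replicate gave 0 to 0 genes except in the TatNR2B9c time comparisons (0 to 4 in right and 0 to 5 in left cortex). With the animal as a replicate block the 7 right-left and interaction comparisons also gave 0 genes, and with it as a random replicate block no count moved except TatNR2B9c against placebo in left cortex at 1 h (3 in place of 2). For placebo 6 h against 1 h, leaving out 1 replicate gave 41 to 51 genes in right and 57 to 64 in left cortex in place of 50 and 62. Equal spread gave 4 and 4, processed intensities and the series matrix 20 and 35, the sample channel alone 18 and 7, and removal of the weak-reference arrays 40 in left. For TatNR2B9c against placebo, leaving out 1 replicate gave 0 to 2 genes in right and 0 to 4 in left cortex at 1 h, and 0 to 7 and 9 to 40 at 6 h, in place of 2, 2, 4 and 25. In right cortex at 1 h there were 14 from the sample channel alone (17% of all genes called), 51 with median centring (67%), 4 with processed intensities or the series matrix, 1 without background correction or with scan day as a random block, and 0 with the compared groups alone or without the weak-reference arrays. In left cortex at 1 h there were 16 from the sample channel (21.5%), 60 with median centring (77.1%), 15 with processed intensities or the series matrix (12%), 4 with the mean over probes, 1 without the filter, and 0 with equal spread, the compared groups alone, scan day or without the weak-reference arrays. In right cortex at 6 h there were 7 with median centring, 1 with the compared groups alone, and 0 with equal spread, processed intensities or the series matrix. In left cortex at 6 h there were 8 from the sample channel and 0 with the compared groups alone, equal spread, processed intensities or the series matrix. The causes were not tested. Signs turned as follows (log2), under settings whose all-gene medians in the placebo time comparisons were -0.80 and -0.89 (median centring) and -0.36 and -0.35 (processed intensities) in right and left cortex. In placebo 6 h against 1 h, median centring gave KCNAB1 -1.44, KCNC2 -0.86, KCNH8 -0.04, KCNIP1 -0.87, KCNIP2 -0.18, KCNIP3 -1.22, KCNJ10 -1.15, KCNJ4 -0.33, KCNJ6 -0.12, KCNK12 -0.49, KCNK16 0.40, KCNMB4 -0.54 and KCNN3 -0.04 in right and KCNAB1 -1.39, KCNC2 -0.96, KCNIP1 -1.52, KCNIP3 -1.40, KCNJ10 -2.03, KCNJ4 -0.33, KCNJ6 -0.30, KCNK12 -0.75, KCNK16 0.79, KCNK6 0.08, KCNMB4 -0.43, KCNN1 -0.11 and KCNN3 -0.13 in left cortex. Equal spread gave KCNAB1 -0.90, KCNC2 -0.54, KCNE2 0.42, KCNIP3 -0.50, KCNJ1 0.75, KCNJ10 -0.17, KCNJ4 -0.07, KCNJ8 1.35 and KCNMB4 -0.23 in right and KCNJ8 0.53 and KCNK5 0.44 in left. Processed intensities gave KCNC4 -0.17, KCND2 0.00, KCNH2 -0.34, KCNK10 -0.33, KCNK3 -0.10 and KCNN3 -0.13 in right (series matrix KCNK10 -0.32, the others equal) and KCNK10 -0.19 in left. The sample channel alone gave KCNA4 -0.14, KCNAB1 -0.60, KCNC2 -1.41, KCNH8 -0.87, KCNIP2 -0.05, KCNIP4 -0.60, KCNJ6 -1.02, KCNK16 0.11, KCNK2 -0.12, KCNK3 -0.10, KCNK4 0.45, KCNMB4 -0.29, KCNN4 0.24, KCNQ1 0.20 and KCNQ3 -0.04 in right and KCNAB1 -0.57, KCNC2 -1.13, KCNG3 -0.46, KCNH2 -0.05, KCNH5 -0.15, KCNH8 -0.50, KCNIP1 -0.46, KCNIP4 -0.14, KCNJ10 -0.62, KCNJ5 -0.02, KCNJ6 -0.53, KCNK16 0.20, KCNK2 -0.29, KCNK3 -0.09, KCNK6 0.27, KCNMB2 -0.61, KCNMB3 -0.10, KCNMB4 -0.33, KCNN4 0.26, KCNQ1 0.41, KCNQ3 -0.06 and KCNQ5 -0.04 in left. The mean over probes gave KCNK4 0.44 in right. In TatNR2B9c against placebo, median centring gave KCNH3 -1.80 and KCNIP3 -2.31 in left cortex at 1 h, and in left cortex at 6 h equal spread gave KCNMB4 0.01 and the sample channel KCNAB2 0.01, KCNC4 0.56, KCNE2 -0.34, KCNH4 0.48, KCNK2 0.39, KCNQ1 -0.15 and KCNV2 1.78. In right cortex at 6 h the sample channel gave KCNN4 -0.17. Of the 145 calls in all, 140 held without background correction, 76 with median centring, 51 with processed intensities, 22 in the sample channel alone and 9 with equal spread.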
